A study of Mus musculus with 4 samples.

Results

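The blood cells of the mouse olfactory mucosa were the barcodes that the deposited annotation places in its clusters of blood cells, 314 of 21809 barcodes in all. The study dissociated the main olfactory epithelium of 4 C57BL/6 males (the strain as the labels give it), each 8 weeks old, and sequenced the RNA of single cells captured in droplets, with 1 library per mouse. All 4 animals form 1 group with no treatment, transgene or other allele in the labels, so the comparisons here are between cell classes within a mouse, and the mice are the replicates (n = 4). Before loading, the papain-dissociated cells were sorted for Hoechst-positive, DRAQ7-negative events. Hoechst is a dye that binds DNA, and DRAQ7 served to exclude dead cells. The annotation merges its 2 blood clusters under 1 name, and the study set these barcodes aside together with 7 immune clusters before it turned to neurons. Other classes used here for comparison were the 2391 barcodes of the immune clusters and the 15859 retained cells, which are neurons, their precursors and supporting cells.

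Red blood cells are made from nucleated precursors called erythroblasts, which fill with hemoglobin while they divide, condense their nucleus and finally lose it. Hemoglobin is a tetramer of alpha and beta globin chains that each carry a heme, and the mouse encodes its adult alpha chains in Hba-a1 and Hba-a2 and its adult beta chains in Hbb-bs and Hbb-bt. The transcription factors Gata1 and Klf1 switch on the globins, the heme pathway and the red cell membrane genes in these precursors. A mature mouse red cell in the circulation has no nucleus and little RNA.

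The blood cells held 37 of 5364 barcodes in mouse 1, 171 of 5696 in mouse 2, 34 of 4746 in mouse 3 and 72 of 6003 in mouse 4. These counts came to 0.690% of barcodes in mouse 1 (95% Wilson interval 0.501% to 0.949%), 3.00% in mouse 2 (2.59% to 3.48%), 0.716% in mouse 3 (0.513% to 0.999%) and 1.199% in mouse 4 (0.954% to 1.51%). Mouse 2 thus contributed more blood cells than the other mice together, and the intervals, which cover counting error only, overlapped between mice 1 and 3 and between mice 3 and 4. UMIs (unique molecular identifiers, counted once per captured transcript) numbered 317016, 1073374, 401087 and 380189 over the blood cells of mice 1 to 4. The median blood cell held 5332 UMIs and 626.5 detected genes, with a range of 503 to 67002 UMIs and of 99 to 7036 genes. Of the 314 cells, 209 had fewer than 1000 genes, the minimum that the study later set for retained cells. Across the libraries 54 barcode sequences occurred in more than 1 mouse, and 2 blood barcodes were among them.

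The label was set beside its markers. The study named these clusters in part from hemoglobin genes, so globins in them are a description and no separate check. Every blood cell held globin UMIs, and 306 of 314 had globins at 10% or more of their UMIs. Ptprc (CD45), the pan-leukocyte surface phosphatase that the study's methods cite for these clusters beside the globins, had 1 UMI in 1 of 314 blood cells, against UMIs in 60.7% of immune cells at a median of 2144 UMIs per cell. In retained cells, which should lack Ptprc, 0.385% had a UMI. The blood cells are therefore described here as globin-bearing cells without a leukocyte profile.

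Promoters are shown for globin genes, the most abundant transcripts of the blood cells, and for Alas2, the erythroid enzyme of heme synthesis, since these genes were high in the same cells. Each line gives the 250 bases before the RefSeq start (GRCm38.p6), with capitals marking the motifs searched on both strands. These were the GATA element AGATAA or TGATAA, the CCNCNCCC element of KLF factors, the CCAAT box and TATAA, and overlapping matches run together as 1 block of capitals.
Hba-a1 (chr11:32283422-32283671, plus strand): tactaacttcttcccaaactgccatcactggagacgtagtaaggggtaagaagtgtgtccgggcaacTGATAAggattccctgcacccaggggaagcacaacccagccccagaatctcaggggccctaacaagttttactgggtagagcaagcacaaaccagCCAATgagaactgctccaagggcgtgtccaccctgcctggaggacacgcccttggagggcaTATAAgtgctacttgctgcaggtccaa
Hbb-bs (chr7:103827929-103828178, minus strand): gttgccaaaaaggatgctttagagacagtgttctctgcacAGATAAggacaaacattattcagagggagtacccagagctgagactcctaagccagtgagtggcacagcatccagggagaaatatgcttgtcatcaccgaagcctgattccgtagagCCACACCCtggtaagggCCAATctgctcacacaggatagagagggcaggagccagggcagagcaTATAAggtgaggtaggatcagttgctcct
Hbb-bt (chr7:103813924-103814173, minus strand): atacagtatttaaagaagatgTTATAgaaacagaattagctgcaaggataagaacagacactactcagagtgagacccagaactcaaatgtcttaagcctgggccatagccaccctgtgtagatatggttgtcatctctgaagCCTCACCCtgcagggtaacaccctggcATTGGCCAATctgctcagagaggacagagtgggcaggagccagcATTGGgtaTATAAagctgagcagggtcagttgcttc
Alas2 (chrX:150547167-150547416, plus strand): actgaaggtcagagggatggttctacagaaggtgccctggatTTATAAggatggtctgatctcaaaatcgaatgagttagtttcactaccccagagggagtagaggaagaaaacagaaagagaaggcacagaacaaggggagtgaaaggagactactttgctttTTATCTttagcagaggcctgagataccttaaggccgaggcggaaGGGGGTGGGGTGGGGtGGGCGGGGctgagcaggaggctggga
The Hba-a2 window (chr11:32296242-32296491, plus strand) was the Hba-a1 window shifted by 3 bases, with 247 of 247 overlapping bases equal, so it is not printed. Hbb-bs and Hbb-bt had 127 of 249 bases equal at their best ungapped offset. A GATA element lay 183 bases before the start of Hba-a1, 210 before Hbb-bs and 86 before Alas2, and no match to these letters lay in the Hbb-bt window. Of all 32851 promoters of this length, 16.6% held the GATA element, 45.9% the KLF element, 33.8% a CCAAT box and 22.8% TATAA. Promoters were matched for 9 of 10 globin genes, of which 6 held the GATA element, and for 12 of 17 red cell membrane genes, of which 6 did. Among 13 matched late red cell genes, 1 held it. These matches describe letters and not binding.

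The 4 adult globin genes dominated the transcriptome of the blood cells. Levels are given as UMIs per 10000 UMIs of the class in a mouse. Hbb-bs, a beta chain gene, had 2832, 2543, 2081 and 3115 in mice 1 to 4, and Hba-a1, an alpha chain gene, had 1356, 1540.3, 1279 and 1582. Hba-a2 had 829, 984, 861 and 998, and Hbb-bt had 704, 672, 556 and 789.5. The order Hbb-bs, Hba-a1, Hba-a2, Hbb-bt was the same in all 4 mice. Together the globins made up 57.2%, 57.4%, 47.8% and 64.9% of blood UMIs in mice 1 to 4. Mouse 4 lay highest and mouse 3 lowest. In retained cells the globins summed to 1.15 ± 1.203 UMIs per 10000 (SD, n = 4), and to 0.636 without mouse 4. Blood cells thus exceeded retained cells by 13.35 ± 2.21 on the log2 scale for Hba-a1 and by 13.13 ± 1.89 for Hbb-bs (SD over mice).

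The globins of the embryo were nearly undetected. Hbb-bh1 and Hbb-bh2, further beta-like genes, had 0 UMIs in 314 cells, which allows a share of cells with a UMI, not of cells expressing the gene, of up to 0.955%. Hbb-y, the embryonic beta-like gene, had 2 UMIs in 2 cells, and Hba-x, the embryonic alpha-like gene, had 8 UMIs in 1 cell of mouse 2. Hbq1b, a theta globin of the alpha cluster, had 217 UMIs in 130 cells, or 0.757, 1.08, 0.573 and 1.42 UMIs per 10000 in mice 1 to 4. Hbq1a, another theta globin, had 26 UMIs in 23 cells.

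Globin content differed widely among the blood cells. The globin share of a cell ran from 0.0953% to 94.3%, with a median of 67.0% and quartiles of 48.3% and 80.8%. The median cell lay at 62.7%, 65.2%, 65.0% and 74.0% in mice 1 to 4. At the 10% boundary the nearest cells lay at 9.41% below and 10.3% above, and 10 cells lay between 5% and 15%.

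**Figure D1:**
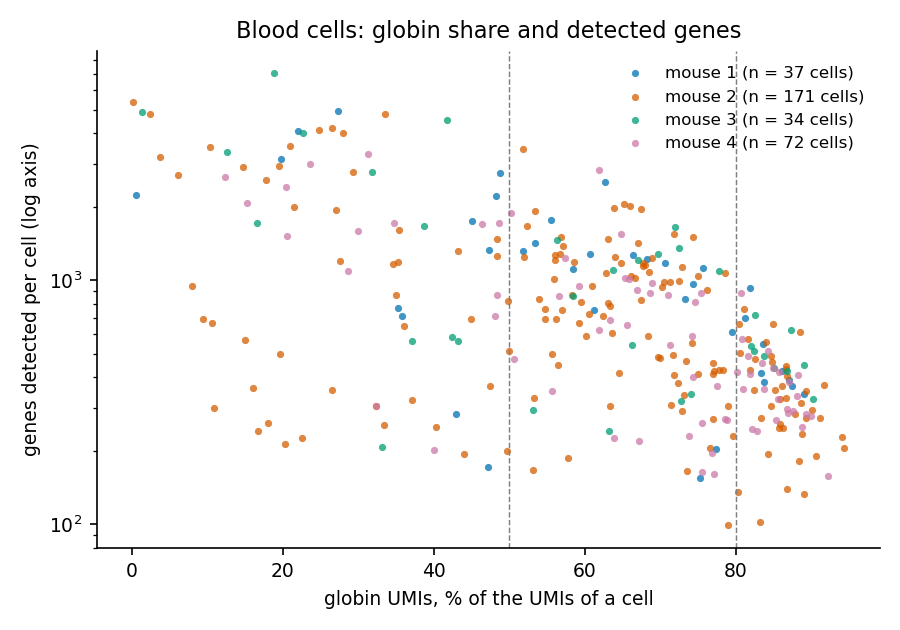
Each point is 1 of the 314 blood cells, with its globin share of UMIs (%) on the horizontal axis and its number of detected genes (log axis) on the vertical axis, coloured by mouse. Dashed lines mark globin shares of 50% and 80%, and the shares run from 0.0953% to 94.3%.

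For the gene comparisons, UMIs were summed per mouse and class, and a gene was called higher or lower where it differed at least 2-fold in the same direction in all 4 mice. A gene entered with at least 3 UMIs in every mouse in the higher class, and a count under 3 in the lower class was taken as 3. In the shallow blood sums this floor can turn a ratio positive. Cxcr2, with 1 UMI in all blood cells, had a mean log2 ratio of 4.34 against retained cells and no call. The clusters were made from these same genes, so the calls are descriptions and no test was run. Of 19159 genes compared with retained cells, 599 (3.13%) were called higher in blood cells and 4620 (24.1%) lower. Of 12606 genes compared with immune cells, 413 (3.28%) were called higher and 2890 (22.9%) lower. With the globins left out of the totals, log2 ratios moved up by 1.23 at the median against retained cells and by 1.22 against immune cells. The calls then became 962 higher and 1305 lower than retained cells, and 877 higher and 808 lower than immune cells. Of the genes called higher, 320 were called in both comparisons, 53.4% of the first list and 77.5% of the second, and both comparisons share the same blood cells.

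Apart from the globins, 6 lists of red cell genes with 74 members were followed. Of these, 56 of 72 that could be compared were called higher than in retained cells and 2 lower. Against immune cells 55 of 73 were called higher and 3 lower. The background shares of 3.13% and 3.28% called higher stand beside these counts, but the clusters were drawn on the same genes. A gene could also enter through the blood class alone, where red cell genes are high. The background includes genes that entered through the other class alone, and those cannot be called higher in blood cells. Counts and background are therefore unlike, here and for the single lists that follow.

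Heme is built by a chain of enzymes, and 8 of its 9 genes were called higher in both comparisons. Their median log2 ratio was 3.79 against retained cells, where the median of all genes compared was -0.12, and 4.50 against immune cells, where it was -0.76. These medians of all genes depend on the floor of 3 UMIs and are no fixed reference. With a minimum of 10 UMIs, log2 ratios moved by 1.74 against retained and 1.12 against immune cells at the median. Without a filter and with 0.5 UMIs added, they moved by -1.50 and -0.54. Alas2, the erythroid enzyme of the first step, had 13.0, 16.1, 13.6 and 16.1 UMIs per 10000 in mice 1 to 4 and at most 0.172 in immune cells and 0.0117 in retained cells of any mouse. These levels per mouse did not overlap between blood cells and the other 2 classes. Single cells did overlap, since a blood cell with a globin share of 0.503% had 0 Alas2 UMIs and an immune barcode had 18. Fech, which inserts the iron, had 6.64 ± 0.637 UMIs per 10000 (SD, n = 4). Cpox, an oxidase of the later steps, had 6.42 ± 0.167, and Alad, the enzyme of the second step, had 5.72 ± 0.180. Alas1, which takes the first step in most other tissues, was the exception, with 0.0528 ± 0.0336 UMIs per 10000 in blood cells, 0.556 ± 0.129 in immune cells and 0.387 ± 0.0502 in retained cells. It was called lower in both comparisons, and the list kept no lower call against retained cells with globins left out of the totals or with TMM or DESeq2 scaling, and none in either comparison with a minimum of 10 UMIs.

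Iron enters erythroblasts through the transferrin receptor Tfrc and reaches the mitochondrion through mitoferrin 1, Slc25a37. Of 10 iron-handling genes, 6 were called higher than in retained cells and 5 higher than in immune cells, with median log2 ratios of 3.49 and 1.95. Slc25a37 had 10.7, 13.2, 10.2 and 12.1 UMIs per 10000 in mice 1 to 4, and at most 0.462 in immune cells of any mouse. Tfrc had 5.93, 4.97, 5.24 and 5.42, and at most 0.539 in immune cells. Both genes stood apart from the other classes in every mouse. The ferritin genes, which store iron in many cell types, were abundant without a call in either comparison, but with globins left out of the totals both were called higher than in retained cells and 9 of the 10 genes were. Fth1 had 43.3 ± 5.19 in blood cells, 40.6 ± 14.6 in immune cells and 24.6 ± 1.95 in retained cells. Ftl1 had 20.4 ± 0.311, 30.5 ± 7.37 and 10.2 ± 1.17.

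Of 17 red cell membrane genes, 15 were called higher than in retained cells and 16 higher than in immune cells, with median log2 ratios of 9.30 and 6.48. Slc4a1 (band 3), the anion exchanger, had 14.2, 16.4, 13.5 and 15.2 UMIs per 10000 in mice 1 to 4 and at most 0.123 in the other classes. Rhd, the Rh blood group protein, had 10.1, 8.65, 6.81 and 10.4 and at most 0.0280 elsewhere. In every mouse the class levels of both genes lay above those of immune and retained cells. Cd47, a surface protein of many cells that restrains uptake by macrophages, had 7.10 ± 0.182 and was called higher than in retained cells but not than in immune cells, where it was called higher once globins were left out of the totals and with TMM or DESeq2 scaling.

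Among 10 transcription factor genes, 7 were called higher in both comparisons. Of the 9 that could be compared with retained cells 1 was called lower, and of the 10 compared with immune cells 1 was. The lower call against retained cells ended with globins left out of the totals, with TMM or DESeq2 scaling and at a 4-fold limit. Klf1 had 2.68, 3.42, 2.87 and 2.74 UMIs per 10000 in mice 1 to 4 and at most 0.0300 in immune or retained cells. Lmo2, a bridging protein of the Gata1 complex, had 2.68 ± 0.132, and its partner Tal1 had 1.44 ± 0.230. Nfe2, a factor of late erythroid genes, had 1.33 ± 0.524, and Zfpm1, the Gata1 cofactor, had 0.983 ± 0.0821. Gata1, named after its values were seen, had 0.694, 0.876, 1.17 and 0.631. Spi1 (PU.1), the myeloid factor held in the list as a contrast, had 4 UMIs in 3 blood cells, and Gata2, a factor of early progenitors, was at 0 of 314 cells.

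In the erythropoietin pathway, through which the hormone keeps erythroblasts alive, 2 of 8 genes that could be compared were called higher in both comparisons. They were the receptor Epor, at 0.739 ± 0.198 UMIs per 10000, and the survival gene Bcl2l1, at 1.99 ± 0.359. Stat5b, a transcription factor downstream of the receptor, was called lower than in immune cells, a call that ended with globins left out of the totals, with TMM or DESeq2 scaling, with a minimum of 10 UMIs and at a 4-fold limit. Summed, the list stood at 5.25 ± 0.965 in blood cells and 6.40 ± 1.24 in immune cells. Against retained cells 4 genes were called higher with DESeq2 size factors. The list's median log2 ratio was 1.19 against retained cells and -0.85 against immune cells. Jak2, the kinase that the receptor uses, had 0.256 ± 0.103 without a call.

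Of 19 late red cell genes, 18 were called higher than in retained cells and 17 higher than in immune cells, with median log2 ratios of 4.02 and 3.90. Gpx1, a peroxide-detoxifying selenoenzyme, had 40.7, 50.6, 53.2 and 50.03 UMIs per 10000 in mice 1 to 4. Prdx2, another peroxidase, had 45.1, 36.7, 33.7 and 42.4, and Car2, a carbonic anhydrase, had 38.9, 35.3, 38.2 and 36.5. The mice lay close together for all 3. Blvrb, biliverdin reductase B, had 17.7 ± 1.29.

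Among the genes with the largest ratios, Rhag, a member of the membrane list and the partner of Rhd, had 2.48 ± 0.219 UMIs per 10000, and Hemgn (hemogen), a nuclear protein of blood-forming cells, had 6.96 ± 1.07. Trim10, Cldn13 and Ctse, a cathepsin, had 4.45 ± 0.552, 4.22 ± 0.437 and 6.03 ± 0.890.

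Genes of the cell cycle were high as well. Of 16, 15 were called higher than in retained cells, with a median log2 ratio of 4.63, and 8 higher than in immune cells, with a median of 1.69, where 3.13% and 3.28% of all genes were called higher. Mki67, the proliferation antigen, had 15.4, 14.3, 11.2 and 13.2 UMIs per 10000 in mice 1 to 4, with at most 2.83 in immune cells and 0.139 in retained cells of any mouse. Ube2c, a mitotic ubiquitin-conjugating enzyme, had 12.3 ± 1.94, Birc5 (survivin) 5.39 ± 0.624 and Cenpf, a kinetochore protein, 5.26 ± 0.333. Hmgb2, a chromatin protein of dividing cells, had 18.4 ± 3.21 in blood cells and 16.5 ± 5.01 in immune cells, with no call between them. Stmn1, a microtubule regulator also made by young neurons, was called lower than in retained cells, a call that ended with globins left out of the totals, with TMM or DESeq2 scaling and at a 4-fold limit. Against immune cells 12 of the 16 genes were called higher with globins left out of the totals, and 2 at a 4-fold limit.

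Markers of other blood lineages were near 0. Over 7 leukocyte lists with 67 genes, the blood cells held 403 UMIs and 25 genes were at 0. None was called higher than in retained or immune cells, and 53 of the 63 that could be compared were called lower than in immune cells, where 22.9% of all genes were. A higher call needs at least 3 UMIs in the blood cells of every mouse, so genes at 0 or with few UMIs could not gain one. Genes could also enter through the immune class alone, where leukocyte markers are high by choice. These counts are therefore descriptions of low levels. The pan-leukocyte list summed to between 0.0631 and 0.745 UMIs per 10000 in the blood cells of the 4 mice and to between 110.0 and 170.3 in immune cells. The neutrophil genes S100a8 and S100a9, which encode the subunits of calprotectin, had 24 and 29 UMIs in all blood cells. These came to 0.0891 ± 0.0695 and 0.118 ± 0.0901 per 10000, against 185 ± 19.4 and 225 ± 20.7 in immune cells. In the platelet list 6 of 8 genes were at 0, among them Pf4 and Ppbp, while Gp9 had 25 UMIs in 23 blood cells and Itga2b had 6. Gp9 stood at 0.102 ± 0.0389 UMIs per 10000 in blood cells and 0.00742 in immune cells, without a call, and without mouse 1 a gene of the list was called higher in both comparisons. All 5 fibroblast markers and 5 of 6 endothelial markers were at 0.

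**Figure D2:**
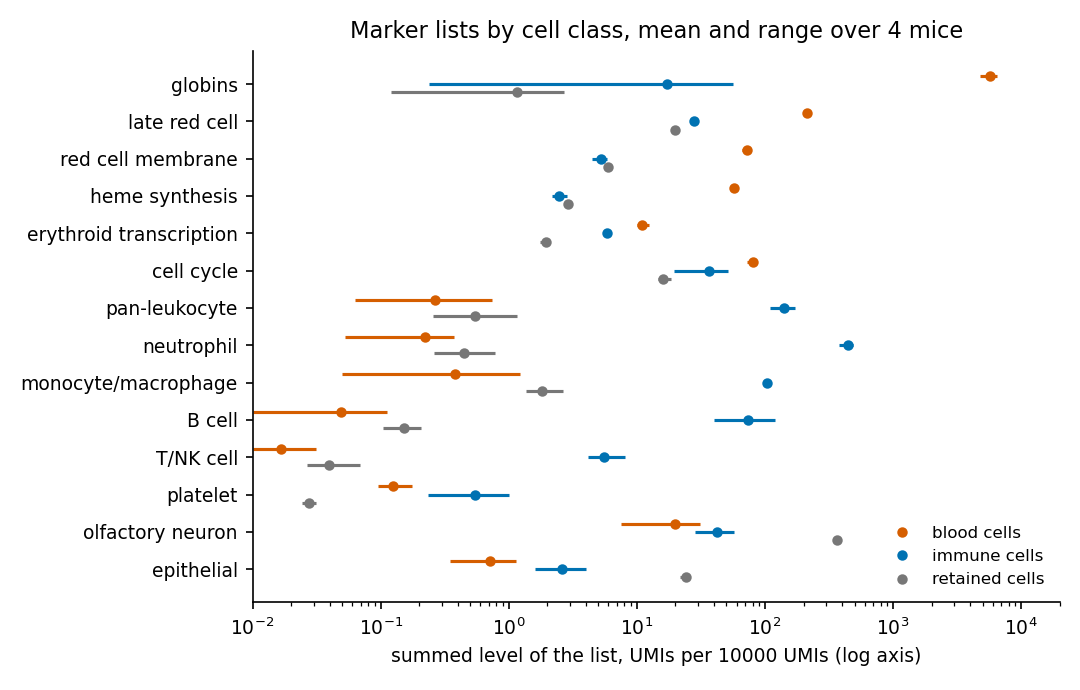
The horizontal axis is the summed level of each marker list in UMIs per 10000 UMIs (log axis), points are the mean of 4 mice and bars the range over mice, ending at 0.01 where a mouse is lower, for blood, immune and retained cells. The globins and the late red cell, membrane, heme and erythroid transcription lists stand highest in blood cells and the leukocyte lists in immune cells. The globin level of immune cells spans 0.236 to 56.0 between mice, and 0.158 to 1.97 in those with at most 3 globin UMIs, which are not drawn separately.

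Among the genes called lower than in retained cells, those with the lowest ratios included secretory and detoxifying genes of the tissue. Scgb1c1, a secretoglobin, had 0.0735 ± 0.0534 UMIs per 10000 in blood cells and 11.3 ± 1.55 in retained cells, and Cyp2g1, an olfactory cytochrome P450, had 0.0195 ± 0.0242 and 2.86 ± 0.604. Against immune cells the lowest ratios included those of neutrophil and antigen-presenting cell genes, such as Cd74, the invariant chain, with 0.00932 ± 0.0186 in blood cells and 47.5 ± 12.7 in immune cells.

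Olfactory neuron markers were found in some of the blood cells. The list of 9 neuron genes summed to between 7.53 and 31.1 UMIs per 10000 in the blood cells of the 4 mice, to between 28.4 and 56.9 in immune cells and to 365 ± 14.3 in retained cells. All 9 were called lower than in retained cells, where 24.1% of all genes were. The count was 8 with globins left out of the totals or with TMM, and 7 with DESeq2 size factors. Omp, the marker of mature olfactory neurons, had a UMI in 18.5% of blood cells and 21.5% of immune cells, at median depths of 5332 and 2144 UMIs. In 21 blood cells Omp, Gng13, Stoml3 and S100a5 together had 10 or more UMIs, and 15 of the 21 had a globin share under 50%. These cells were left out in an alternative chosen after seeing the data, which gave 600 genes higher and 4071 lower than in retained cells.

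The blood cells were also set out in 3 ranges of globin share, a low range under 50% (86 cells), a middle range from 50% to under 80% (144 cells) and a high range of 80% or more (84 cells). These limits were chosen after seeing the data, each mouse had at least 9 cells in each range, and 29 cells lay within 45% to 55% and 63 within 75% to 85%. Levels by range are UMIs per 10000 UMIs that are not globin. The median number of detected genes was 1716 ± 562, 921 ± 237 and 397 ± 71.0 in the low, middle and high range, and the median of UMIs that are not globin was 4816 ± 2547, 2089 ± 779.8 and 897 ± 247 (mean of mouse medians ± SD, n = 4). At a fixed 500 UMIs that are not globin, the median blood cell showed 328 ± 6.78 genes, the median immune cell 338 ± 5.91 and the median retained cell 389 ± 2.31, with 45 blood cells and 1 immune cell too shallow to enter.

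Between the high and the low range, 241 of 2950 genes (8.17%) were called higher in the high range and 118 (4%) lower, with a median log2 ratio of all genes of 0.91. This median and these counts depend in part on the floor of 3 UMIs. The high range held 78744 UMIs that are not globin and the low range 557437, so the floor pushed ratios up and limited lower calls. Kcnq1ot1, with 2.18 UMIs per 10000 in the low range and no UMI in the high range, had a log2 ratio of only -0.33. A minimum of 10 UMIs moved ratios by 1.55 at the median and gave 131 genes higher and 45 lower. The scaling changed which direction held more calls. With edgeR's TMM factors, which moved the median by -0.70, 164 genes were called higher and 258 lower. Of 62 red cell genes that could be compared, 34 were called higher in the high range and 1 lower, against 23 and 2 with TMM and 22 and 4 with DESeq2 size factors.

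The late red cell list was highest in the globin-rich cells, with 16 of 18 members called higher in the high range and 12 of 18 with TMM. Alas2 had 15.0, 9.87, 7.34 and 12.6 UMIs per 10000 in the low range of mice 1 to 4, 39.7, 52.8, 63.1 and 46.1 in the middle range and 106, 167, 171 and 145 in the high range. The ranges did not overlap. Bpgm, which makes the 2,3-bisphosphoglycerate that lowers the oxygen affinity of hemoglobin, had 4.38, 1.36, 1.88 and 0.960 in the low range and 95.9, 122, 85.1 and 91.7 in the high range, 46.0-fold more by the means. Gpx1 went from 44.3 ± 6.54 to 402 ± 70.8. Xpo7, a nuclear exportin, went from 2.04 ± 1.74 to 79.0 ± 19.8, and Tent5c, a poly(A) polymerase, from 2.83 ± 1.45 to 63.4 ± 15.5. Each of these genes was at least 2-fold higher in the high range in all 4 mice.

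Klf1, Hemgn and Epor had their highest mean in the middle range. Klf1 had 5.65 ± 1.11, 10.3 ± 1.62 and 2.80 ± 1.85 UMIs per 10000 in the low, middle and high range. Hemgn had 11.03 ± 3.56, 31.2 ± 3.78 and 6.72 ± 1.21, and Epor had 1.14 ± 0.522, 3.03 ± 0.620 and 0.459 ± 0.327. The membrane genes as a list stood at 95.2 ± 23.2, 292 ± 35.4 and 328 ± 18.4, and Slc4a1 among them at 18.2 ± 5.21, 60.5 ± 12.6 and 78.3 ± 11.6. Of the 17, 7 were called higher in the high range, 3 with TMM and 2 with DESeq2 size factors. Of all 2950 genes compared, 241, 164 and 156 were. Of 7 transcription factor genes compared, Lmo2 and Nfe2 were called higher in the high range, at 17.6 ± 3.54 and 9.54 ± 4.53 there. Only 1 member of that list was called higher with TMM, with DESeq2 size factors or with a minimum of 10 UMIs. With that minimum 131 of all 1050 genes were. With DESeq2 size factors 1 member was called lower, beside 289 of 2950 genes. Counts this small are not read as a trait of either list.

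Cell cycle genes were not spread evenly over the ranges. As a list they stood at 149.5 ± 18.4, 313 ± 29.8 and 43.9 ± 22.7 UMIs per 10000 in the low, middle and high range. Of 16 genes none was called higher in the high range and 6 were called lower, where 118 of 2950 genes (4%) were. With TMM 10 were called lower, beside 258 of 2950 genes. With a minimum of 10 UMIs 1 of 15 was, beside 45 of 1050 genes. Mki67 had 25.4, 22.4, 14.7 and 27.7 in the low range of mice 1 to 4, 62.5, 54.1, 63.4 and 62.0 in the middle range and 4.61, 11.4, 3.83 and 7.27 in the high range. It was highest in the middle range in every mouse. Pcna, the sliding clamp of DNA replication, stood at 7.66 ± 0.310, 3.12 ± 0.383 and 0 and Mcm5, of the replicative helicase, at 3.23 ± 0.882, 0.577 ± 0.264 and 0, both named after their values were seen. The high range held 78744 UMIs that are not globin in all. Top2a, a topoisomerase of dividing cells, had 9.47 ± 0.765, 14.9 ± 3.07 and 0.194 ± 0.238.

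**Figure D3:**
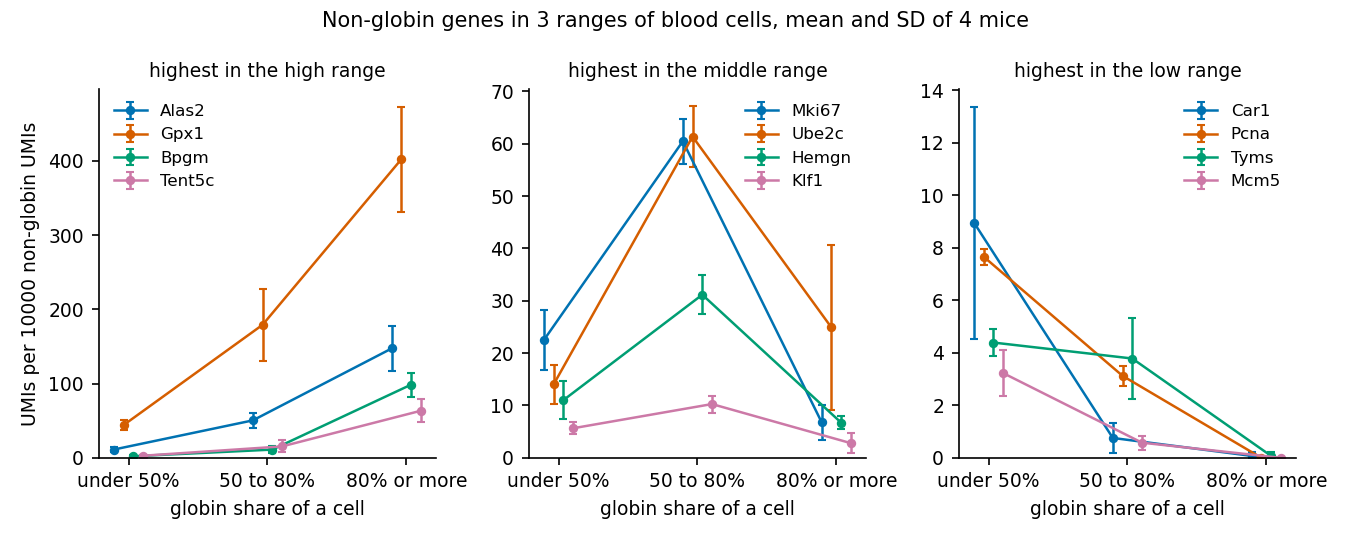
The 3 panels give the level of 4 genes each, in UMIs per 10000 UMIs that are not globin, in blood cells with globin shares under 50%, from 50% to under 80% and of 80% or more, as the mean of 4 mice with SD bars. Alas2, Gpx1, Bpgm and Tent5c are highest in the globin-rich range, Mki67, Ube2c, Hemgn and Klf1 in the middle range, and Car1, Pcna, Tyms and Mcm5 in the low range.

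Ribosomal protein transcripts took a smaller share in globin-rich cells. They made up 18.9%, 20.4%, 26.6% and 14.8% of the UMIs that are not globin in the low range of mice 1 to 4, 6.42%, 6.16%, 4.65% and 5.32% in the middle range and 5.88%, 3.44%, 2.88% and 3.96% in the high range. The low range did not overlap with the others. Car1, a carbonic anhydrase of early erythroid cells, had 8.96 ± 4.42, 0.757 ± 0.575 and 0.0730 ± 0.146 UMIs per 10000 and was the member of the late red cell list called lower in the high range, a call that was lost with a minimum of 10 UMIs. Malat1, a nuclear RNA, had 173 ± 59.7, 314 ± 59.0 and 484 ± 167, without a call, while per 10000 of all UMIs it had 99.1 ± 5.50 in blood cells and 300.3 ± 41.1 in retained cells. Its call as lower than in retained cells ended with globins left out of the totals, where the list of 4 nuclear RNAs went from 3 called lower to 0.

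The neuron list moved with the ranges too, at 64.7 ± 36.0, 30.9 ± 23.4 and 10.7 ± 5.25 UMIs per 10000. The 21 cells that held neuron markers were picked by 4 of the 9 genes of this list, so a lower level without them was set in advance. Without them the list stood at 2.38, 5.41 and 8.38, in the reverse order of ranges. The range comparison then gave 226 genes higher and 134 lower. In the remaining cells Alas2 had 12.0, 52.5 and 148 and Mki67 26.2, 66.2 and 6.87 in the 3 ranges.

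The alpha genes differed in proportion along the ranges. Hba-a1 made up 66.3%, 66.1%, 63.7% and 67.6% of Hba-a1 and Hba-a2 UMIs in the low range of mice 1 to 4, 62.8%, 62.5%, 59.9% and 63.0% in the middle range and 58.1%, 57.5%, 57.6% and 58.3% in the high range. It was lower in each mouse with each step, and the ranges did not overlap. Hbb-bs made up 75.3% to 78.7% of the Hbb-bs and Hbb-bt UMIs in the low range, 79.7% to 80.7% in the middle and 77.8% to 80.6% in the high range, where the high range overlapped with both others. The ratio of alpha to beta UMIs over all blood cells was 0.618, 0.785, 0.812 and 0.661 in mice 1 to 4. The genes are near copies, and the part of read assignment in these shares was not tested. Of the 90-base windows in the last 300 bases of the Hba-a1 transcript, 57.3% also occur in Hba-a2, and 24.6% of those of Hbb-bs occur in Hbb-bt.

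**Figure D4:**
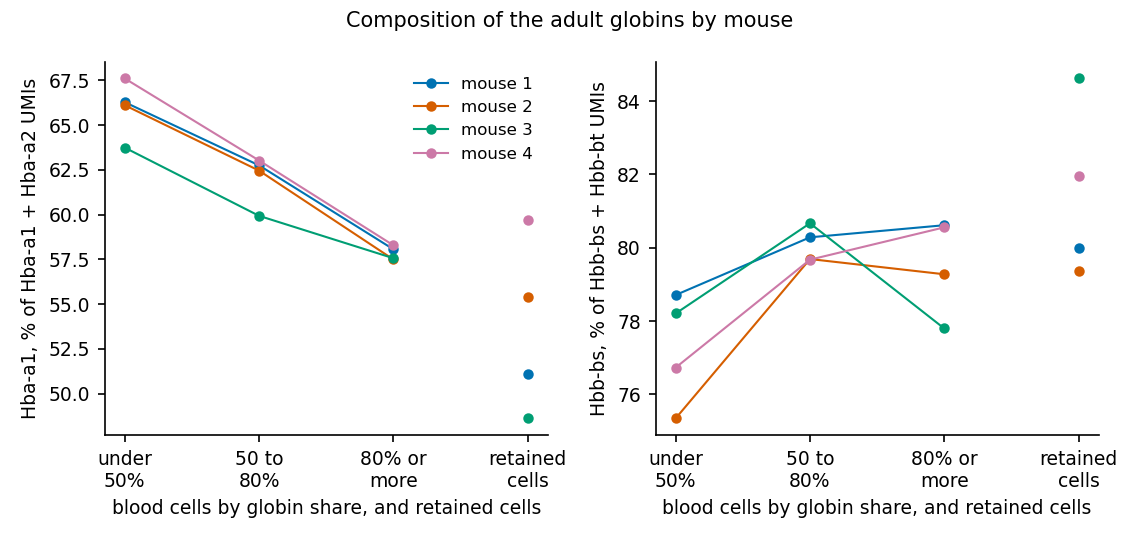
The left panel gives Hba-a1 as a percent of the Hba-a1 and Hba-a2 UMIs and the right panel Hbb-bs as a percent of the Hbb-bs and Hbb-bt UMIs, for each mouse, in blood cells of 3 ranges of globin share and in retained cells with at most 3 globin UMIs. The share of Hba-a1 is lower with each range in all 4 mice, from 63.7% to 67.6% in the low range to 57.5% to 58.3% in the high range.

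The 8 blood cells under a globin share of 10% came from mouse 1 (1 cell), mouse 2 (6 cells) and mouse 3 (1 cell). In the 3 deepest of them, with 31562, 32516 and 34230 UMIs, Car2 had 139, 84 and 150 UMIs and Car1 had 47, 20 and 118. Klf1 had 29, 19 and 12 UMIs in the same cells and Gata1 had 10, 9 and 5. None of the 8 had a Ptprc UMI, and another of them held 26 Omp and 42 Gng13 UMIs.

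Globin UMIs also occurred in cells outside the blood clusters. In retained cells 7.58%, 40.9%, 17.6% and 24.8% of cells in mice 1 to 4 had at least 1 globin UMI, at median depths of 6070, 4504, 6939 and 4223 UMIs. After each cell was thinned to 1000 UMIs, the mean share was 6.19% ± 4.92 (SD, n = 4). Counting only retained cells with at most 3 globin UMIs, the level was 0.120, 1.12, 0.274 and 0.658 per 10000, in the same order of mice as the blood share of barcodes. With 4 mice no relation was tested. In mouse 4, 2 retained cells held 67.3% of the globin UMIs of that class. The thinned share spanned 6.55% to 20.7% over the 10 cell types in mouse 2 and 0% to 2.70% in mouse 1. Mouse 2 was highest in 7 of 10 types and mouse 4 in 3, and mouse 1 was lowest or level with the lowest in all 10.

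**Figure D5:**
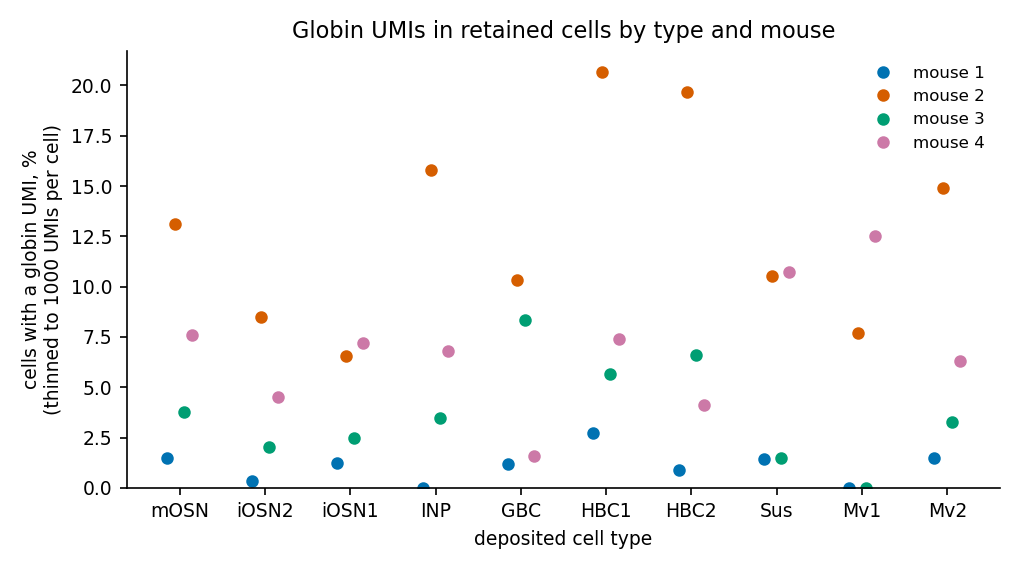
The vertical axis is the percent of retained cells with at least 1 globin UMI after thinning to 1000 UMIs per cell, for the 10 deposited cell types on the horizontal axis, with 1 point per mouse. Points of mouse 2 lie highest in 7 types, and those of mouse 1 reach at most 2.70%.

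In the retained cells with at most 3 globin UMIs, Hba-a1 made up 51.1%, 55.4%, 48.6% and 59.7% of the alpha UMIs in mice 1 to 4. These shares rest on few UMIs, with 69, 432, 106 and 258 of Hba-a1 beside 66, 348, 112 and 174 of Hba-a2. By value alone, the share of Hba-a1 lay below all 3 blood ranges of the same animal for mice 1 to 3. For mouse 4 it fell between the middle and the high range. The part of counting error in these gaps was not tested, so no difference from blood cells is read from them. Immune cells had 0.236, 56.0, 11.5 and 0.959 globin UMIs per 10000 in mice 1 to 4. Counting only immune cells with at most 3 globin UMIs, the level was 0.158, 1.97, 0.506 and 0.959. Among all immune cells, 7 barcodes had globins at 10% or more of their UMIs, 6 in mouse 2 and 1 in mouse 3. They held 17933 globin UMIs, where the class held 15994 in mouse 2 and 3170 in mouse 3. Alas2 UMIs were in 7 of the 7, Slc4a1 UMIs in 6 and Ptprc UMIs in 2. Of all barcodes with globins at 10% or more, 95.03% were in the blood clusters and 16 were outside them.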

How the data were processed

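Single cells of the main olfactory epithelium of 4 mice were measured by droplet RNA-seq, 1 library per mouse. The authors made the UMI counts per gene and barcode with Cell Ranger 6.0.1 on GRCm38, as the submitters' processing notes give it, and deposited raw counts with an annotation from their own clustering. Libraries held 23157467 to 32382702 UMIs. Here, counts were summed per mouse and class and divided by the class total. Since a cluster against other cells is no test, genes were called by a 2-fold difference in all 4 mice, with a floor of 3 UMIs. The rule was tried on simulated counts that held no globin excess and no spread between mice beyond counting error. That trial does not cover the effect of globins on the totals. Wilson 95% intervals cover counting error only. No doublet caller was run. For shares of cells with a globin UMI, each cell was thinned to 1000 UMIs. The members and the gene lists were chosen with earlier results of these data known. Genes were named by level within each list and by the largest ratios of each comparison, and some members that the lists count are not reported here singly. Gata1, Bpgm, Tent5c, Xpo7, Car1, Pcna, Tyms, Mcm5 and Top2a were in part named after their values were seen, as were the globin ranges and the cells with neuron markers. Motifs were searched in RefSeq promoters, and 90-base windows in GENCODE transcripts. A planned comparison of both blood clusters was not run, because the annotation gives them 1 name. Alternatives were totals without globins, edgeR (4.0.16) and DESeq2 (1.42.0) scaling factors, other count and fold limits, means over cells, and leaving out each mouse. Python 3.11.15, numpy 2.4.6, pandas 2.3.3, scipy 1.17.1, matplotlib 3.10.9 and R 4.3.3 were used.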

Additional observations from a re-analysis of the deposited data

Results flagged for a closer look

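In retained cells, the ratio of Hbb-bs to Hbb-bt UMIs was 5.56 in mouse 3, far from the next mouse at 4.04. It rests on 339 and 61 UMIs in mouse 3, against 2449 and 606 in that next mouse, mouse 4. The part of counting error in this gap was not tested. Hba-x, the embryonic alpha-like globin, had 0.0745 UMIs per 10000 in the blood cells of mouse 2 and 0 in the other mice, and all of its UMIs sat in 1 cell. Of 64 sets of 4 mice checked in this way, 2 had a mouse that far from the others, where chance gives about 1 in 20. Among barcodes of the high-mitochondrial clusters, which no comparison used, 7 had globins at 10% or more of their UMIs, with shares from 14.8% to 98.6%. Alas2 UMIs were in 4 of the 7, Slc4a1 UMIs in 2, and Ptprc UMIs in none.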

How the results depend on the processing

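With edgeR TMM, 1069 genes were higher and 954 lower in blood than in retained cells, and 745 higher and 1074 lower than in immune cells. DESeq2 size factors gave 1094 and 918, and 774 and 972. Totals without globins gave 962 and 1305, and 877 and 808. A minimum of 10 UMIs left 1915 lower than in retained and 1121 lower than in immune cells. Without a filter and with 0.5 UMIs added, the counts were 11759 and 7150, and 1983 and 4440. A 4-fold limit left 1785 lower than in retained cells, and 221 higher and 1014 lower than in immune cells. Between the globin ranges, a comparison chosen after seeing the data, TMM gave 258 lower, DESeq2 156 higher and 289 lower, and a minimum of 10 UMIs 131 higher and 45 lower. A 20% globin limit held 92.5% of blood cells. In retained cells with at most 3 globin UMIs the ratio of alpha to beta globins was 0.570, and thinning to 1000 UMIs left 6.19% of retained cells with a globin UMI. Leaving out each mouse gave a blood share of 0.869% to 1.64%, a globin share of 54.1% to 59.8%, a globin level in retained cells of 0.636 to 1.499 UMIs per 10000, and 607 to 676 genes higher and 4685 to 5352 lower than in retained cells. Against immune cells it gave 449 to 460 higher and 2958 to 3603 lower, and between the ranges 248 to 292 higher and 120 to 174 lower. Of 3452 alternatives for named genes, 64 lost a call and 119 gained one. No called value changed sign, while 144 values with no call did, among them Ftl1 against immune cells. The comparison of both blood clusters and its alternatives were not run, because the annotation merges them. Ratios were taken within each mouse, so the comparisons of classes are paired by mouse. The depth of blood cells, down to 503 UMIs, limits what can be seen of low genes.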
